A study of Mus musculus with 6 samples.

Results

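The PTF1 complex and the acinar maturation factors are the transcription factors that switch on and sustain the digestive enzyme programme of the exocrine pancreas. They are described here as 8 genes, Ptf1a, Rbpjl, Rbpj, Tcf3, Tcf12, Nr5a2, Bhlha15 and Xbp1, which were taken by symbol from the authors' deposited table. All 8 were among its 14681 genes. The study compared the dorsal pancreas of 3 control and 3 knockout mouse embryos of the C57BL/6 strain at embryonic day 18.5 by RNA sequencing of ribosomal RNA-depleted total RNA. The extraction protocol calls the mutants Dpy30∆P, for a pancreatic loss of Dpy30, a shared subunit of the complexes that methylate lysine 4 of histone H3. The labels do not name the Cre driver, the alleles or the genotype of the controls, and the whole dorsal organ was lysed, so cells outside the pancreatic epithelium contributed RNA. The table gives 1 row of test results per gene and no value for each embryo, so the spread between embryos enters only through the error of each fold change.

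PTF1 is a trimer. Its pancreas-specific subunit is the basic helix-loop-helix protein PTF1A, which pairs with a widely expressed E protein (the product of Tcf3 or Tcf12) to bind an E-box, while the third subunit, RBPJ in early progenitors and its acinar paralog RBPJL later, binds a neighbouring TC-rich box. RBPJ is also the DNA-binding effector of Notch signalling, and the exchange of RBPJ for RBPJL accompanies acinar maturation. NR5A2 is an orphan nuclear receptor that acts with PTF1 on enzyme genes. BHLHA15, also known as MIST1, and XBP1 scale up the secretory apparatus: BHLHA15 organises granules and exocytosis, and XBP1, translated after its mRNA is spliced by the endoplasmic reticulum (ER) sensor IRE1, expands the ER and its folding capacity.

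The binding letters of PTF1 can be seen beside the factor genes and the enzyme genes of this comparison. The windows searched ran from 250 bases before to 50 after an annotated RefSeq start (GRCm38.p6). That start need not be the outermost one of the gene. Some genes had more than 1 window, and a gene counted when any of its windows held the motif. A pair was an E-box, CANNTG, and an RBPJ core, TTCCCA, on either strand, at most 30 bases apart and not overlapping. It was present in 2 of the 8 factor genes, Rbpjl and Rbpj, and in 4 of the 12 called acinar genes that have a window (of 16 called). Over the whole table it was in 7.12% of the 11547 genes with a window, and in 6.97% of all 32851 windows. The windows of Rbpj lie inside the span of the gene, and only the one from 53590096 to 53590395 holds the pair. The sites are shown because Rbpjl carries such a pair and was not called, while Cpa1, Pnliprp1 and Prss1 carry one and were called lower. The remaining called gene with a pair, Cela2a (28 bases apart), is not shown. Most called acinar genes with a window held no pair, so the shown genes are examples. Capitals mark the E-box letters and the RBPJ core (TGGGAA on the strand shown). In the enzyme genes only the closest pair is capitalised, and the Pnliprp1 stretch holds a further E-box, left in lower case, nearer its 3′ end. Each stretch reads 5′ to 3′ on the gene's strand, and the bases come from RefSeq. The Rbpjl stretch (chr2:164403088-164403117, + strand) lies inside the span of the gene, which begins at 164403081, and overlaps an annotated exon. Its core lies 5 bases from the first of 2 E-boxes. The other stretches lie upstream of the gene start and outside annotated exons. The pairs of Cpa1 (chr6:30639155-30639217, + strand), Pnliprp1 (chr19:58728771-58728854, + strand) and Prss1 (chr6:41458792-41458864, + strand) are separated by 12, 22 and 11 bases. In the 250 bases before the Ptf1a start (chr2:19445413-19445662, + strand) a core was found without an E-box.
Rbpjl: cgTGGGAAgcctaCATCTGcccagCAGGTG
Cpa1: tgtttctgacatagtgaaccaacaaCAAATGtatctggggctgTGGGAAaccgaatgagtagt
Pnliprp1: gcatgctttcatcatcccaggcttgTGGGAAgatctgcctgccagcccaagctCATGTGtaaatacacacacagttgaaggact
Prss1: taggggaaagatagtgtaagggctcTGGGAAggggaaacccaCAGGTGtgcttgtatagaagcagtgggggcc
Ptf1a: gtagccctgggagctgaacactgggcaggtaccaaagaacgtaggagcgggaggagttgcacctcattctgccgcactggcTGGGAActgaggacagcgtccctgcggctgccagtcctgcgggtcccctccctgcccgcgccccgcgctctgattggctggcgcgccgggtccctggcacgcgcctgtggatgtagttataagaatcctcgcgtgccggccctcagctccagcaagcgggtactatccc
A match describes letters and shows no binding. The NR5A2 core, AAGGTCA on either strand, was in a window of 1 of the 8 factor genes (Tcf12) and of 1 of the 12 called acinar genes (Prss1). Over the whole table it was in 4.2% of the 11547 genes with a window, and in 4.72% of all windows.

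None of the 8 factors was called. In the authors' deposited table, 0 of 8 had an adjusted p under 0.05 by their DESeq2 test, against 0.743% of the 12108 genes with an adjusted p, and 0 of 8 had an unadjusted p under 0.05, against 5.39% of the 14386 genes with a p. A count of 0 of 8 is near these backgrounds and is not a result about the 8 genes. The smallest p was that of Rbpj, at 0.233, and the adjusted p of each of the 8 was 1.00. What the comparison does give is the range of sizes that the data allow. The deposited fold changes were shrunken toward 0 and lay between -0.03 and 0.12 on the log2 scale for the 8 genes, so unshrunken values, reconstructed from each deposited value and its posterior SD, are used for sizes. On that scale 6 factors were above 0 and 2 below, the median was 0.07, and the values ran from -0.17 to 0.51. These sizes depend on the assumed scale of the prior: with one 1.25 times as large all 8 kept their sign and lay closer to 0, with Rbpj at 0.28, Ptf1a at 0.05 and a median of 0.03. With a scale smaller by a like step, Rbpj stood at 2.08 and the other 7 could not be given a value. The fitted scale was the one that best returned the deposited p-values. At neither other scale did the z of Rbpj lie within 0.1 of that of its deposited p, so those values of Rbpj do not match the authors' DESeq2 test. Whether fewer cells of a type or less RNA per cell lies behind any value cannot be told apart in whole tissue.

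The name of the deposited table refers to a knockout of Pdx1, a pancreatic transcription factor gene, whereas the series title and the extraction protocol name Dpy30. The values below are read as those of the Dpy30 knockout, and the sources used here do not settle the difference. Neither the labels nor the table state which group is the numerator. A positive value is read as higher in the knockout, by the usual convention, and all signs would turn together if the opposite held. Dpy30 itself gave no check: it had a mean normalized count of 29.4 and an unshrunken value of 0.51 ± 1.67 log2 units (SE, 3 control and 3 knockout samples; 95% interval -2.77 to 3.78). All other errors and intervals below rest on the same 6 samples, and p-values measure only the spread between them.

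Ptf1a (Entrez gene 19213; chromosome 2, 19445663 to 19447501, GRCm38), the specifying subunit, had the lowest mean count of the 8 and the largest error. Its mean normalized count over all libraries was 115. The deposited log2 fold change was 0.02 ± 0.21 (posterior SD) in the authors' deposited table, and the unshrunken value was 0.34 ± 0.94 (SE). The 95% interval, from -1.49 to 2.17, spans changes from 2.82-fold lower to 4.51-fold higher.

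The RBPJ-type subunits were measured more closely. Rbpjl (Entrez gene 19668; chromosome 2, 164403081 to 164415448), the acinar-restricted subunit of the mature complex, had a mean normalized count of 693 and an unshrunken value of 0.04 ± 0.52 log2 units (SE; 95% interval -0.98 to 1.06). Rbpj (Entrez gene 19664; chromosome 5, 53555779 to 53657445), which serves both the early complex and Notch signalling, had a mean normalized count of 397. Its log2 fold change of 0.51 ± 0.43 (SE) was the highest of the 8, and its interval from -0.33 to 1.35 included 0. The lower bound for Rbpj allows a decrease of at most 1.25-fold, the tightest such limit among the 8 genes. The intervals of the paralogs overlapped, so a shift of one against the other was not shown.

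The E proteins sat on either side of 0. Tcf3 (Entrez gene 21423; chromosome 10, 80409541 to 80433976), which encodes E12 and E47, had a mean normalized count of 807 and a log2 fold change of 0.09 ± 0.43 (SE; 95% interval -0.75 to 0.94). Tcf12 (Entrez gene 21406; chromosome 9, 71844252 to 72111893), which encodes HEB, had a mean normalized count of 448 and the lowest value of the 8, at -0.17 ± 0.44 (SE; 95% interval -1.03 to 0.69). Both genes are expressed in many cell types, and their values in whole tissue are not those of acinar cells alone.

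Among the maturation factors, Bhlha15 lay closest to 0. Nr5a2 (Entrez gene 26424; chromosome 1, 136842562 to 136960448) had a mean normalized count of 759 and a log2 fold change of -0.08 ± 0.45 (SE; 95% interval -0.97 to 0.80). Bhlha15 (Entrez gene 17341; chromosome 5, 144190286 to 144194441) had a mean normalized count of 450 and a log2 fold change of 0.01 ± 0.42 (SE; 95% interval -0.81 to 0.82), the smallest size of the 8. Xbp1 (Entrez gene 22433; chromosome 11, 5520641 to 5525993) was the most abundant, with a mean normalized count of 899, and its log2 fold change was 0.12 ± 0.46 (SE; 95% interval -0.79 to 1.02). The table counts whole genes, so the spliced form of Xbp1 mRNA that encodes the active factor was not separated from the unspliced form. For the 7 genes other than Ptf1a, decreases of more than 2.04-fold and increases of more than 2.55-fold fell outside the intervals at the fitted prior scale. The upper limit, 1.35 log2 units, is set by Rbpj and depends on the centre: relative to the epithelial markers described below its upper bound was 2.27. At the smaller prior scale the value of Rbpj itself was 2.08, but that value does not match its deposited p.

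**Figure D1:**
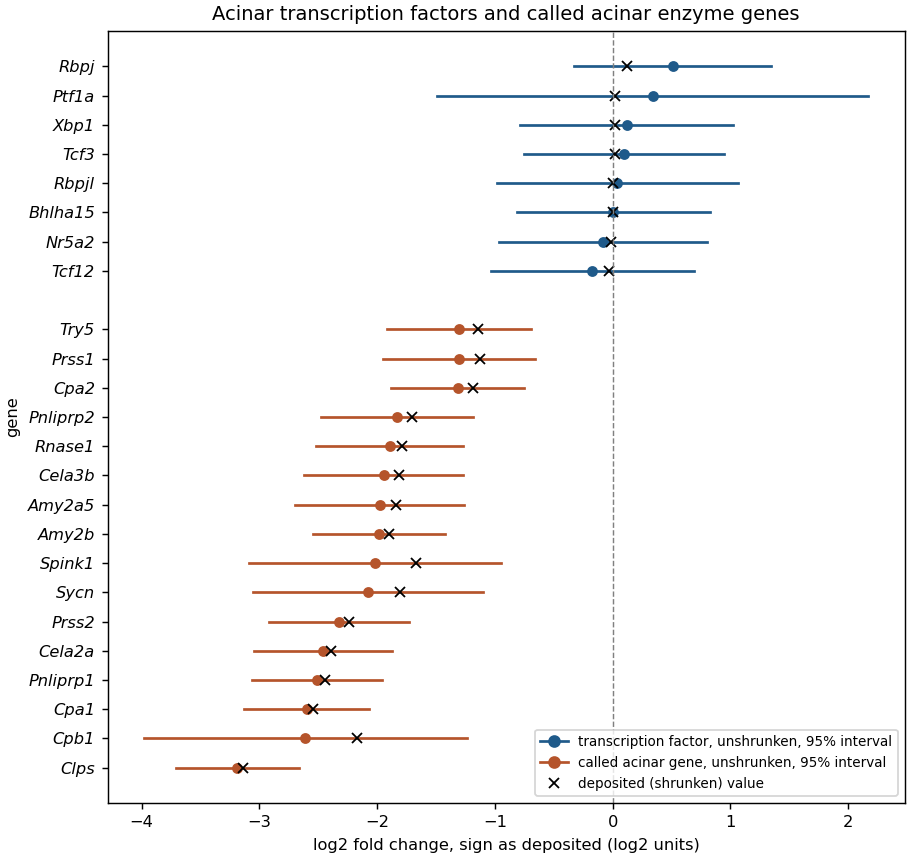
Log2 fold changes on the x axis (log2 units, with the deposited sign) for the 8 factor genes (blue) and the 16 acinar enzyme and granule genes called by the authors (brown), 1 gene per row; circles are unshrunken values with 95% intervals and crosses the authors' deposited shrunken values. The factor genes lie between -0.17 and 0.51 with intervals across 0, and the called acinar genes lie below them, down to Clps at -3.19.

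Levels were compared per transcript length, from the authors' mean count over all libraries divided by the length of the GENCODE protein-coding transcripts of each gene. These are levels of the mixed tissue with both groups averaged, and no spread over embryos can be given. Xbp1 stood at 422 normalized counts per kb with its longest transcript and 1002 with its shortest, above Rbpjl at 282 and Tcf3 at 274 to 385. Nr5a2 ran from 160 to 432 normalized counts per kb, a range that overlaps those of all 3, so its place among them is undetermined, as is the order of Rbpjl and Tcf3. Bhlha15 stood at 129 normalized counts per kb. Below it, Ptf1a at 76.5, Rbpj at 72.4 to 80.0 and Tcf12 at 71.1 to 128 could not be ordered among themselves. Among the RBPJ-type subunits, the level per kb of Rbpjl was at least 3.52 times that of Rbpj over all transcript lengths, although Rbpj is made in every cell type of the organ. All 8 genes lay above the middle of the table's mean counts, from the 64.0th percentile for Ptf1a to the 96.7th for Xbp1, and together they held 0.125% of the summed mean counts.

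**Figure D2:**
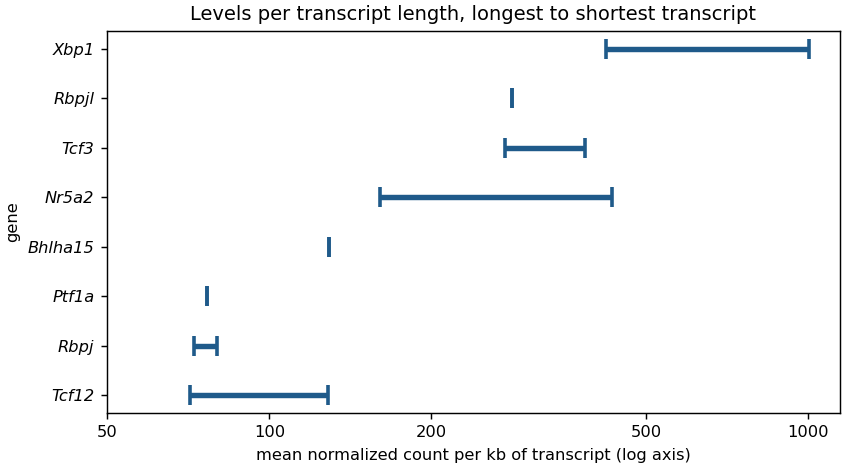
Mean normalized count per kb of transcript (x axis, log scale) of each of the 8 factor genes (y axis); each bar runs from the value with the longest to that with the shortest GENCODE protein-coding transcript, and genes with 1 such transcript are single marks. Rbpjl at 282 lies apart from Rbpj at 72.4 to 80.0.

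The factors also differed in how tightly their fold change was measured for their abundance. Each SE was set against those of all reconstructed genes with a mean count between 0.8 and 1.25 times its own. Genes whose value could not be reconstructed have no SE here and were left out, so the shares cover the others only. The SE of Rbpjl, 0.52, was larger than that of 91.2% of 409 such genes, whose median was 0.41, and that of Xbp1, 0.46, was larger than in 89.9% of 306 genes. Nr5a2 (79.0% of 381), Tcf3 (73.7% of 350) and Ptf1a (60.3% of 1545) also lay above the middle of their neighbours. Rbpj lay near the bottom, with an SE larger than in 4.63% of 885 genes, as did Bhlha15 (11.3% of 767) and Tcf12 (21.8% of 772). A large SE at a given count means a larger modelled spread between libraries for that gene. For Ptf1a the SE of 0.94 was near the median of 0.89 at its count, so its wide interval goes with its low abundance.

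**Figure D3:**
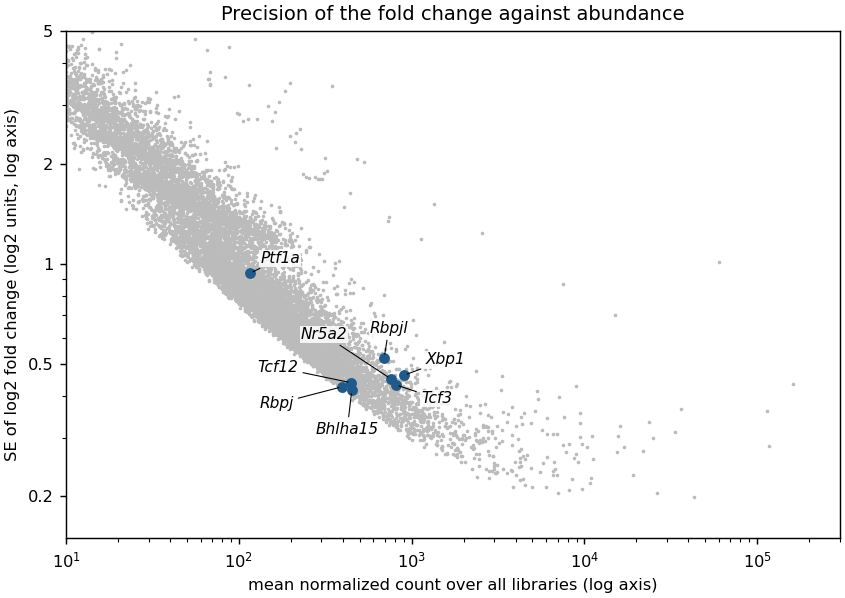
SE of the unshrunken log2 fold change (y axis, log scale) against the mean normalized count over all libraries (x axis, log scale, from 10 upward); grey points are genes of the deposited table whose value could be reconstructed and blue points the 8 factor genes. Ptf1a has the lowest count of the 8 and an SE of 0.94, and Rbpjl stands at the upper edge of genes of similar count.

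Enzyme and granule genes, the main targets of the PTF1 complex, were called lower in large number. Of 31 listed genes of this kind in the authors' deposited table, 16 were called lower and 0 higher by their DESeq2 test. Over the whole table, 0.479% of tested genes were called lower. Signs were negative in 28 of 31, against 45.2% of all genes with a p. At an unadjusted p under 0.05, 23 were lower and 2 higher, against 2.7% of genes with a p in each direction. Those 2 were Try4, a trypsinogen, at 1.20 ± 0.36 (SE; adjusted p = 0.0854, authors' DESeq2 test), and Cela1, an elastase, at 0.56 ± 0.28 (SE; adjusted p = 0.770 in the same DESeq2 test). The median over the 25 whose unshrunken value had an SE of at most 1 was -1.84, against -0.04 over the 5697 such genes of the whole table. In the authors' deposited table, Clps, the cofactor of pancreatic lipase, had a shrunken log2 fold change of -3.14 ± 0.27 (adjusted p = 1.13e-28), Cpa1, a carboxypeptidase, one of -2.54 ± 0.27 (adjusted p = 4.58e-18) and Pnliprp1, a lipase-related protein, one of -2.45 ± 0.29 (posterior SD; adjusted p = 3.06e-15). Ctrb1, chymotrypsinogen B and the most abundant of them, had an unshrunken value of -1.37 ± 0.44 (SE) and was not called (adjusted p = 0.134, authors' DESeq2 test).

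Set beside the 16 genes, which were picked because the same test called them lower, the factors had higher values. The errors of 2 genes measured in the same libraries are correlated to an unknown degree, so each difference was given an interval in which both errors are added in full, which holds for any correlation. Rbpjl exceeded Clps by 3.23 log2 units (interval 1.68 to 4.77) and Cpa1 by 2.64 (1.08 to 4.19). For Nr5a2 the differences from Clps and Cpa1 were 3.10 (1.70 to 4.51) and 2.52 (1.10 to 3.93), and for Bhlha15 they were 3.19 (1.85 to 4.54) and 2.61 (1.26 to 3.96). The interval lay above 0 for 16 of the 16 called genes with Rbpj, for 13 each with Tcf3, Bhlha15 and Xbp1, and for 12 each with Rbpjl, Tcf12 and Nr5a2. With Ptf1a it did so for only 5 of 16, since its own interval is wide. The difference between Ptf1a and Prss1, a trypsinogen, for example was 1.64 with an interval from -0.84 to 4.13. The direction of the 16 genes was fixed by the choice of called genes. The intervals do not allow for that choice, so the sizes of the differences and the counts above 0 are description and no separate support. Members of the trypsinogen and amylase families resemble each other closely, and how reads were shared among them is uncertain.

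Secretory genes linked to BHLHA15 had negative signs, while Bhlha15 itself was at 0.01. Of 7 listed, 5 were in the table and all 5 had negative signs. The authors' DESeq2 test called 0 of 5, against 0.743% of genes with an adjusted p. Of the 5, 3 with a negative sign reached an unadjusted p under 0.05, against 2.7% of genes with a p. Tmed6, a cargo receptor family member of the early secretory pathway, had an unshrunken value of -1.22 ± 0.42 (SE; adjusted p = 0.249 in the authors' DESeq2 test). Rab26, a small GTPase of secretory granules and a known BHLHA15 target, was at -1.79 ± 0.75 (SE; adjusted p = 0.566 in the same DESeq2 test). Atp2c2, a calcium pump of the secretory pathway, had an unadjusted p of 0.00469, and its size could not be determined.

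ER folding and translocation genes, which include many XBP1 targets, leaned the same way by a smaller amount. Of 29 in the table, 26 had a negative sign, where 45.2% of all genes with a p did. The authors' DESeq2 test called 0 of 29, against 0.743% of genes with an adjusted p, and a count of 0 is near that share. At an unadjusted p under 0.05, 5 (17.2%) were lower and 0 higher, against 2.7% of genes with a p in each direction. The median of the 28 with a determined value was -0.45. Hyou1, an ER chaperone, was at -0.82 ± 0.26 (SE; adjusted p = 0.150, authors' DESeq2 test), Spcs2, a signal peptidase subunit, at -1.15 ± 0.50, Sel1l, a component of ER-associated degradation, at -0.78 ± 0.37, and Hspa5, the main ER chaperone BiP, at -0.36 ± 0.23 (SE). Xbp1 stood at 0.12 ± 0.46, and its interval overlapped those of these 4 genes. Of the 7 ER stress sensors and effectors, 6 had an adjusted p and 0 passed the authors' DESeq2 test, which is likewise near the share of 0.743%. At an unadjusted p under 0.05 the number was 1, against 5.39% of genes with a p. That gene was Eif2ak3, which encodes the sensor PERK, at -0.75 ± 0.38 (SE). Ern1, which encodes the IRE1 enzyme that splices Xbp1, was at -0.49 ± 0.59 (SE).

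Partners and neighbours of PTF1 in its network gave no calls. Over the whole table, 0.743% of genes with an adjusted p were called, and 5.39% of genes with a p reached an unadjusted p under 0.05. Counts of 0 in lists this short are near these shares and are not a result about the lists. Among the E protein partner and inhibitor genes, 0 of 5 passed the authors' DESeq2 test, and at an unadjusted p under 0.05 the number was also 0. Tcf4, the remaining E protein, was at 0.57 ± 0.61 (SE), and Id1, an inhibitor that sequesters E proteins, at -0.43 ± 0.92 (SE). Of the genes of the Notch arm that shares RBPJ, 15 of 18 were in the table. In the same DESeq2 test the number called was 0, and it was 0 at an unadjusted p under 0.05. Notch2, a receptor with a mean normalized count of 980, was at 0.21 ± 0.38 (SE), Notch1 at 1.64 ± 1.35, and Spen, an RBPJ corepressor, at -0.94 ± 0.58 (SE). Among other factors of the exocrine lineage, 14 of 16 were in the table, again with 0 called and 0 at an unadjusted p under 0.05 (DESeq2). Gata6, needed for acinar differentiation, was at 0.80 ± 0.49 (SE), the progenitor factor Sox9 at -0.97 ± 0.58, and Foxa3 at -1.59 ± 0.84 (SE).

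**Figure D4:**
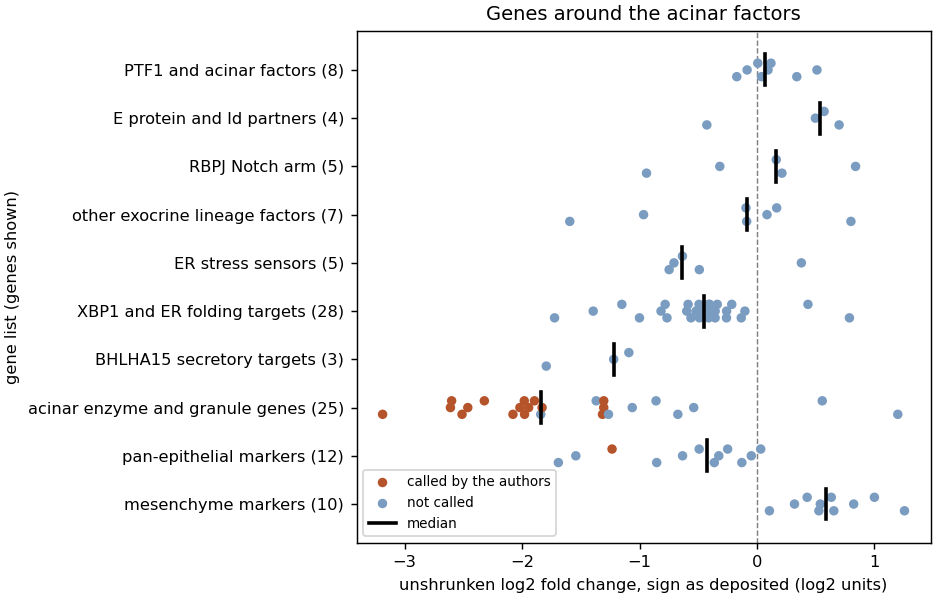
Unshrunken log2 fold changes on the x axis (log2 units, with the deposited sign) for genes of each list with an SE of at most 1 (y axis, number of genes in brackets); each point is a gene, brown where the authors called it, and black bars are medians. The 8 factors centre at 0.07, the ER folding list at -0.45 and the acinar enzyme list at -1.84.

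Markers of whole cell classes were read beside these values. Over the whole table, 45.2% of genes with a p had a negative sign, and 2.7% reached an unadjusted p under 0.05 in each direction. By adjusted p, 0.479% of tested genes were called lower and 0.264% higher. The sign counts below include genes with low counts or no determined size. Genes shared by all epithelial cells had a weighted mean log2 fold change of -0.63 ± 0.15 (SE, 12 genes, which are not independent replicates), with 16 of 17 negative and Krt18 as the single call. The median of the 12 was -0.43. Krt18, at -1.23 ± 0.28 (SE), had the smallest SE of the 12 and so the largest weight in the mean. Ductal markers were negative in 9 of 9 genes, with 0 called and 2 lower at an unadjusted p under 0.05 (authors' DESeq2 test). Mesenchyme markers had a median of 0.59 over 10 genes, with 10 of 12 positive, 0 called and 4 higher at an unadjusted p under 0.05 (authors' DESeq2 test). The listed endocrine markers were negative in 12 of 12 genes with a p, of which 4 were called lower, and liver markers were positive in 9 of 9, with 0 called and 5 at an unadjusted p under 0.05 (DESeq2). Leukocyte markers were positive in 9 of 9 genes, with 0 called and 0 at an unadjusted p under 0.05 by the same DESeq2 test. Of these 9, 2 had an unshrunken value with an SE of at most 1, and Camp had a mean normalized count of 7.21. Erythroid markers were positive in 5 of 5, of which 2 had such a value. Gata1, an erythroid transcription factor, was called higher (adjusted p = 0.0235 in the authors' deposited table, DESeq2), and its size could not be determined. Endothelial markers were mixed, with 4 negative and 5 positive, a median of 0.04, and 0 called or at an unadjusted p under 0.05 (DESeq2). The 31 listed acinar enzyme and granule genes held 14.4% of the summed mean counts, in tissue labelled pancreas. Amy2a4, an amylase gene with a mean normalized count of 113567, was not on the list, so the full acinar share is larger. When fold changes were taken relative to the epithelial mean, every gene moved up by the same 0.63: the median of the 8 factors became 0.69, Tcf12 and Nr5a2 changed sign to 0.46 and 0.54, and the ER folding median changed sign to 0.18. Rbpj then stood at 1.14, with an unadjusted p of 0.00769 and an adjusted p of 0.204 (normal test on the value and its SE). That test left out the error of the epithelial mean, so its p-values may be too small. With both errors added in full, the interval of Rbpj ran from 0.00622 to 2.27 and barely excluded 0. The median of the epithelial markers, -0.43, was not used as a centre and would move every gene up by less. The ER folding median of -0.45 lies below it. The changed sign of that list and the lower bound of Rbpj therefore depend on the choice of centre. By the adjusted p of the normal test, 0 of 8 factors passed. The part of tissue composition in any of these values was not tested.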

How the data were processed

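Ribodepleted RNA of 3 control and 3 knockout dorsal pancreata was sequenced; the authors used Trimmomatic, Salmon and DESeq2 on GRCm38 (mm10), per the submitters' processing notes, which give no versions. The authors deposited 1 table of results, with no per-library values, so depth per library is unknown. Per the file headers, its deposited columns are the mean normalized count (a signal) over the libraries, a log2 fold change, here found to be shrunken, with its posterior SD, and the DESeq2 p-value, raw and adjusted. Calls are the authors', at an adjusted p under 0.05. With no per-library values, counts were not tested again, and the only p-values computed here are normal tests of reconstructed values taken relative to another centre. These tests use the SE of the gene alone and leave out the error of the centre.

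Unshrunken values assume a Cauchy prior on the fold change; its scale, 0.31, was the one whose z values came closest to those of the deposited p-values, and a value was kept where its z lay within 0.1 of that of the p (84.4% of 14386 genes). For the 8 factors the mismatch was at most 0.00599. The arithmetic was tested on data simulated with the same kind of prior, which does not check the prior itself. Sizes rest on the assumed prior. Intervals are 95% and normal.

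The members and lists were chosen with earlier results of these data known. Genes named are the 8 factors and, from each list around them, those with the 2 smallest p and the 2 highest mean counts. Values of Prss1, Try4, Cela1 and Amy2a4 lie outside that rule and were chosen after they were seen. Analyses used Python 3.11.15, numpy 2.4.6, scipy 1.17.1 and pandas 2.3.3. Promoter windows were scanned for 11547 of 14681 genes. Alternatives were another threshold, adjustment, prior scale, centring, count filter and motif definition. Protein sequences were not used here.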

Additional observations from a re-analysis of the deposited data

How the results depend on the processing

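No paired analysis was possible because the deposited table holds no per-library values, although control and knockout samples share replicate numbers; leaving out each replicate, another normalization and another count test were not run for the same reason. The count of called factors was 0 at an adjusted p under 0.1, with adjustment over all genes with a p, at an unadjusted p under 0.05, and relative to the pan-epithelial mean. Relative to that mean, Tcf12 became 0.46 and Nr5a2 0.54, both with a changed sign, and the median of the 8 factors became 0.69. The same centring, which for lists was chosen after seeing the data, gave medians of 1.16 for E protein and Id partners, -0.593 for BHLHA15-linked genes, 0.18 for ER folding genes and -0.0074 for ER stress sensors. It adds 0.63 to every gene by construction. The marker median, -0.43, would add less, and the ER folding median of -0.45 lies below it. With deposited shrunken values the medians were -0.0842 for BHLHA15-linked genes and -0.0612 for ER stress sensors. A prior scale 1.25 times as large gave a median of 0.03 for the 8 factors with no sign changed, and one smaller by as large a step gave a value for Rbpj alone, 2.08. At neither scale did the z of Rbpj lie within 0.1 of that of its deposited p. At a gap of at most 15 bases the E-box and RBPJ core pair was found in 1 factor gene and 2 called acinar genes, and with the longer core TTTCCCA in 0 and 2. Precision was lowest for Ptf1a, the factor with the lowest mean count: its interval ran from 2.82-fold lower to 4.51-fold higher.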
